A study of Mus musculus with 47 samples.

Results

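This report follows 10 genes of bile acid synthesis and transport, Cyp7a1, Cyp8b1, Cyp27a1, Cyp7b1, Cyp39a1, Baat, Slc10a1, Abcb11, Nr1h4 and Nr0b2, in mice on a methionine-restricted diet. They were chosen by symbol for their place in the pathway, and all 10 were among the 26608 genes of the liver count table. The study gave 12 male mice of the inbred strain C57BL/6J, aged 5 weeks at the start, free access to a control diet (6 mice) or to a diet low in methionine, an essential amino acid (6 mice), over 11 weeks. All mice were housed at 23 C and had been without food for 5 h at harvest, so both diet groups carry that short fast, and no mouse had an engineered allele per the labels. RNA of liver, inguinal white fat (IWAT), interscapular brown fat (BAT) and gastrocnemius muscle was counted with SOLiD SAGE, which sequences 1 short tag from the 3' part of each transcript, next to the last CATG in it. Each library is 1 tissue of 1 mouse, 6 per diet, except that 5 restricted gastrocnemius libraries were analysed here. Libraries are named by diet (CON for control, MR for methionine-restricted) and animal number.

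Bile acids are made from cholesterol in hepatocytes. The classic route starts with Cyp7a1, and alternative routes start from oxysterols that Cyp27a1 and other hydroxylases make and that Cyp7b1 or Cyp39a1 then hydroxylate. The products are joined to taurine, itself derived from methionine and cysteine, by Baat, pumped into bile by Abcb11 and taken back from blood by Slc10a1. The bile acid receptor Nr1h4 (FXR) and the repressor it induces, Nr0b2 (SHP), hold synthesis in check.

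Since a SAGE library counts 1 tag per transcript, the tag is the molecule measured. The 4 tags below belong to the genes on which the results turn. They were predicted from the mouse GENCODE vM1 transcripts, as the deposited tables give counts by gene symbol only, with CATG, the NlaIII site, in capitals and the 23 bases after it in lower case, a length assumed here.
Cyp39a1, transcripts 201 and 202: CATGaacagtggatctggggaagaagg
Cyp39a1, transcript 203: CATGgtggctgtatatctcttctcagg
Abcb11: CATGtcacctgatgtcccttactccta
Cyp7a1: CATGtgtgtagaggctggaggtgatgt
All 10 genes had a predicted tag, and 0 of these tags were also the predicted tag of another protein-coding gene of that annotation. Non-coding genes were not searched. The tags shown for Cyp39a1 begin 387, 136 and 92 bases from the 3' end of transcripts 203, 201 and 202, all in the 3' untranslated region. The counts do not tell the Cyp39a1 tags apart. RefSeq genes with other symbols overlap Cyp39a1 (Gm25783, Gm41581), Cyp7b1 (Gm23686) and Baat (Gm32894). The sources used here do not say whether counting used strand, so tags of such partners cannot be told apart from those of the 3 genes.

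Liver libraries held 7710740 to 12130444 tags, IWAT 4887004 to 7094761, BAT 5252688 to 13117537 and gastrocnemius 7756320 to 12829112. A count of 3 tags, the upper limit that a count of 0 allows, corresponds to 0.229 to 0.614 tags per 1000000 over these depths, for counting error only. Levels of genes are given as CPM, tags per 1000000 of the library total after TMM scaling, and sums of marker genes as CPM of the plain total. The 11 hepatocyte markers summed to 107087 to 232458 CPM in liver, and 0 of 11 were called between diets. Adipocyte markers summed to 33787 to 88890 CPM in IWAT, brown adipocyte markers to 4031 to 9526 CPM in BAT, and skeletal muscle markers to 10665 to 138944 CPM in gastrocnemius. The lowest of the latter was MR3101, 1 of 4 libraries whose median Spearman correlation with the other libraries of their tissue was under 0.8. The other 3 were the IWAT libraries CON3106, CON3115 and MR3116, and no liver library was among them. Skeletal muscle marker tags summed to 116 CPM in liver MR3101, 565 CPM in CON3114 and 897 CPM in MR3104, against at most 37.9 CPM in the other liver libraries. Results in liver are given with and without those 3 where that changes a call.

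In liver, 2 of the 10 genes changed with methionine restriction, Cyp39a1 and Abcb11, and both rose. Cyp39a1 rose 4.45-fold and Abcb11 1.51-fold, and these were also the 2 genes whose diet groups did not overlap. A gene was called when its edgeR quasi-likelihood p, Benjamini-Hochberg adjusted over the 10969 genes tested, was under 0.05, which held for 2.26% of them, 1.05% higher and 1.21% lower under restriction. Groups did not overlap for 2.47% of the tested genes, 1.18% with restriction higher. The other 8 genes did not pass the test. The log2 fold change was positive for 8 of the 10, with a median of 0.25 against 0.01 over all tested genes. The 95% intervals of all but Cyp39a1 and Abcb11 included 0, so these signs are a description and show no rise of the set. In bulk tissue, fewer cells of a type and less RNA per cell cannot be told apart.

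**Figure D1:**
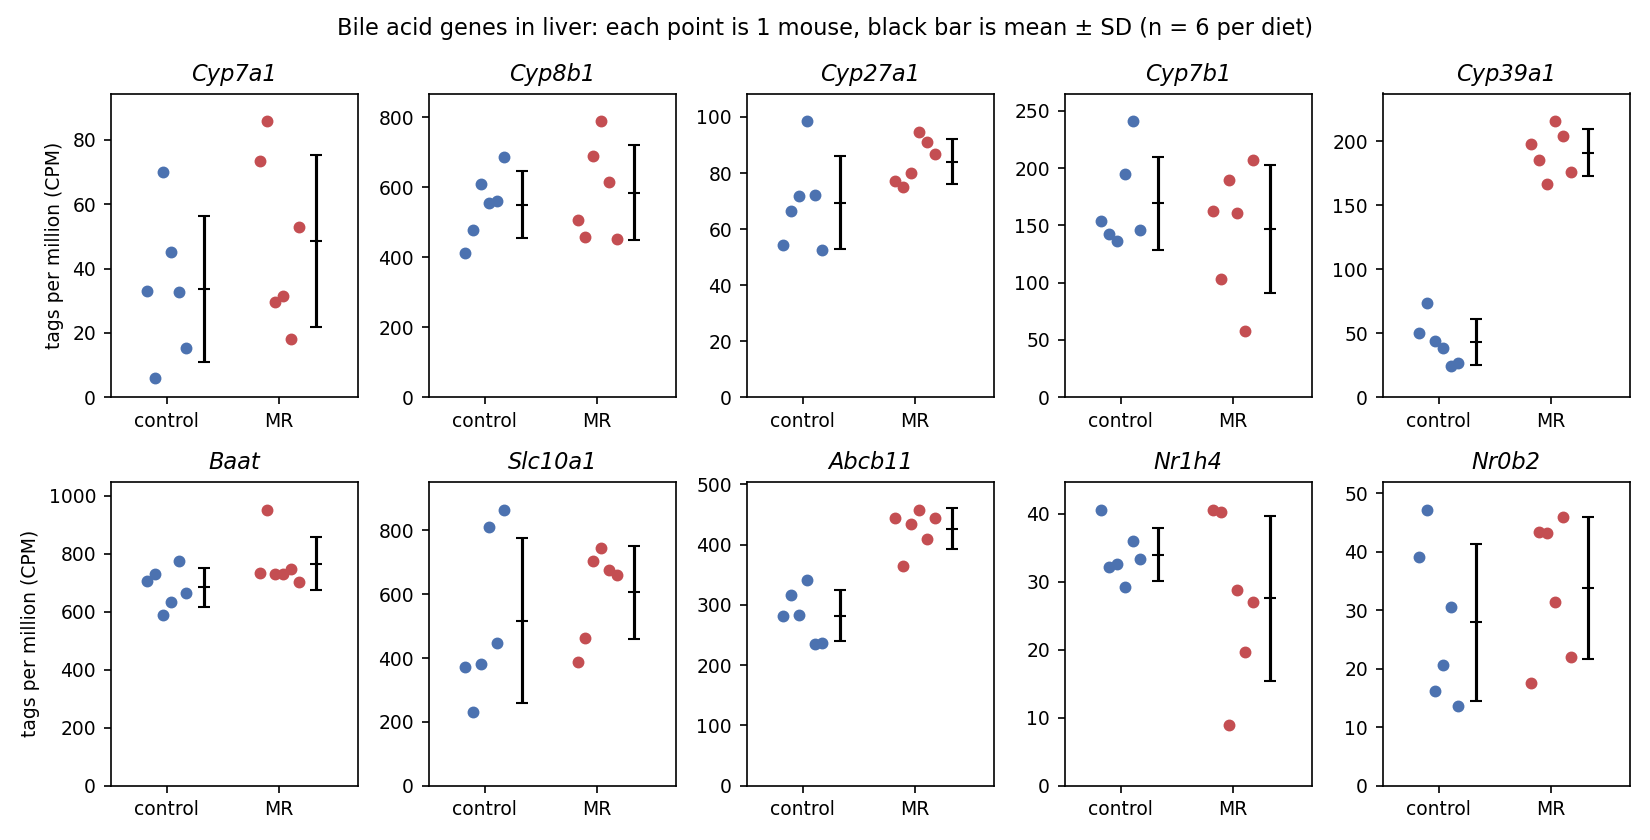
Level of each of the 10 genes in liver, in CPM (linear axis from 0), with 1 point per mouse in blue for the control diet and red for methionine restriction (MR), and mean ± SD in black (n = 6 per diet). The restricted mice lie above all controls for Cyp39a1 (167 to 216 against 24.6 to 74.0 CPM) and Abcb11 (365 to 458 against 235 to 342 CPM), and the groups overlap for the other 8 genes.

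Because 1 tag stands for 1 transcript whatever its length, CPM levels can be set side by side between genes. In control liver Baat had the highest mean level (684 ± 67.4 CPM, SD, n = 6), followed by Cyp8b1 (550 ± 96.3 CPM) and Slc10a1 (518 ± 258 CPM). Abcb11 (282 ± 42.3 CPM) and Cyp7b1 (169 ± 40.9 CPM) came next. Cyp27a1 (69.3 ± 16.6 CPM), Cyp39a1 (43.0 ± 18.2 CPM), Nr1h4 (34.0 ± 3.92 CPM), Cyp7a1 (33.6 ± 22.6 CPM) and Nr0b2 (27.9 ± 13.4 CPM) formed the lower end. In this order the control ranges of all neighbours overlapped except those of Cyp7b1 (lowest 136 CPM) and Cyp27a1 (highest 98.5 CPM). Under restriction Cyp39a1 moved from 7th to 5th place, above Cyp7b1 and Cyp27a1.

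Of the classic route, Cyp7a1, its rate-limiting hydroxylase, varied most between mice. In control livers Cyp7a1 was lowest at 5.99 CPM, had a median of 32.8 CPM and was highest at 70.0 CPM. In restricted livers Cyp7a1 ran from 18.2 CPM over a median of 42.2 CPM to 85.9 CPM. The groups overlapped, with 3 of 6 restricted mice above the control mean and 2 above every control. The controls CON3106 (5.99 CPM) and CON3115 (15.1 CPM) lay below every restricted mouse. Its log2 fold change was 0.53 ± 0.47 (SE), with a 95% interval from -0.47 to 1.53 (edgeR quasi-likelihood test, Benjamini-Hochberg adjusted p = 0.66). The coefficient of variation of Cyp7a1 was 67.3% among controls and 55.2% among restricted mice, so a moderate change in either direction was not detectable with 6 mice per diet.

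Cyp8b1, the sterol hydroxylase that directs the classic route toward cholic acid, was the steadiest of the synthetic enzymes in its group means. It had a median of 558 CPM in controls (412 to 686 CPM) and of 559 CPM in restricted mice (452 to 788 CPM). Cyp8b1 had a log2 fold change of 0.09 ± 0.16, with a 95% interval from -0.25 to 0.42 (edgeR quasi-likelihood adjusted p = 0.845). Without MR3109, the library with the highest level, it was -0.03.

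Cyp27a1, the mitochondrial hydroxylase of the sterol side chain, lay above the control mean in all 6 restricted mice but did not pass the test. Its levels were 52.5, 69.2 and 98.5 CPM in controls (lowest, median, highest) and 75.1, 83.4 and 94.6 CPM under restriction. The highest control, CON3112, exceeded every restricted mouse. Restriction shifted the mean of Cyp27a1 by 0.28 ± 0.14 (log2), with a 95% interval from -0.02 to 0.58 (edgeR quasi-likelihood adjusted p = 0.376).

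Cyp7b1 hydroxylates the oxysterols of the alternative route and is known as a male-biased liver gene. It ranged from 136 CPM over a median of 150 CPM to 241 CPM in controls, and from 58.0 CPM over a median of 162 CPM to 207 CPM in restricted mice. The lowest value, in MR3113, lay well below the next, 103 CPM in MR3102. Its log2 fold change was -0.20 ± 0.25, with a 95% interval from -0.74 to 0.33 (edgeR quasi-likelihood adjusted p = 0.759), and -0.047 without MR3113.

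Cyp39a1, the other oxysterol hydroxylase of the set and one that prefers an oxysterol made mainly in brain, had the largest change of the 10. Control livers held 50.6, 74.0, 43.8, 38.4, 24.6 and 26.4 CPM in CON3103, CON3106, CON3107, CON3112, CON3114 and CON3115. Restricted livers held 198, 186, 167, 216, 204 and 176 CPM in MR3101, MR3102, MR3104, MR3109, MR3113 and MR3116. The lowest restricted mouse was thus above the highest control, and the restricted mice were closer to each other in proportion to their mean (coefficient of variation 9.63%) than the controls (42.3%), a difference in spread that was not tested. The means were 43.0 ± 18.2 and 191 ± 18.4 CPM (SD, n = 6 each), a log2 fold change of 2.15 ± 0.22 with a 95% interval from 1.68 to 2.63. The edgeR quasi-likelihood adjusted p was 9.54e-05, and Cyp39a1 ranked 8th by p among the 10969 genes. Cyp39a1 lies on chromosome 17 (GRCm38, 43667372 to 43751431).

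Baat, which conjugates bile acids to taurine, was the highest of the 10 genes under both diets. It ranged from 591 CPM over a median of 687 CPM to 776 CPM in controls and from 703 CPM over a median of 733 CPM to 953 CPM under restriction. All 6 restricted mice exceeded the control mean, but 5 of them lay within the control range, and the highest was MR3102. The log2 fold change of Baat was 0.16 ± 0.10, with a 95% interval from -0.06 to 0.39 (edgeR quasi-likelihood adjusted p = 0.511).

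Slc10a1, the sodium-dependent carrier that takes bile acids up from blood, was broadly spread. Control levels ran from 231 CPM over a median of 414 CPM to 865 CPM, and restricted levels from 386 CPM over a median of 668 CPM to 746 CPM. The highest controls, CON3112 and CON3115, lay above every restricted mouse and the 3 lowest controls lay below all of them. For Slc10a1 the log2 fold change was 0.23 ± 0.28, with a 95% interval from -0.37 to 0.83 (edgeR quasi-likelihood adjusted p = 0.759), and 0.069 without CON3106.

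Abcb11, the bile salt export pump of the canalicular membrane, rose in a narrow band. Control livers held 281, 316, 282, 342, 235 and 237 CPM in CON3103, CON3106, CON3107, CON3112, CON3114 and CON3115. Restricted livers held 445, 365, 435, 458, 410 and 443 CPM in MR3101, MR3102, MR3104, MR3109, MR3113 and MR3116. All 6 restricted mice lay above all controls, with MR3102 nearest to them. The means were 282 ± 42.3 and 426 ± 33.9 CPM (SD, n = 6 each), and the log2 fold change was 0.59 ± 0.11 with a 95% interval from 0.36 to 0.83 (edgeR quasi-likelihood adjusted p = 0.00829). Without the 3 liver libraries that held skeletal muscle tags, a setting chosen after seeing the data, the log2 fold change was 0.52 and the adjusted p 0.137. In 1 fit over the libraries of all tissues it was 0.58 with an adjusted p of 1.00.

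The promoter of Abcb11 is shown because bile acid receptors are known to act on it through paired half-sites. It covers 250 bases before to 50 after the start site, chr2:69342567-69342866 on the minus strand (RefSeq, GRCm38.p6), and the match to AGGNCA, then any 1 base, then TGACCT, a pair of facing half-sites, is in capitals.
Abcb11 promoter: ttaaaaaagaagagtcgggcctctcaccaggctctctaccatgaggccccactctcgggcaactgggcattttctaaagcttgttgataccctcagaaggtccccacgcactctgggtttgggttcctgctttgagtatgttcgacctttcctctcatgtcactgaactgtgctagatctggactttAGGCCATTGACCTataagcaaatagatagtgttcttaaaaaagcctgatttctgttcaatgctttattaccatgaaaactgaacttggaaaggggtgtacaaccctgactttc
The match AGGCCATTGACCT begins 63 bases before the start site. Searched on both strands, this pattern was found in 12 of 32851 promoters of the same length (0.0365%), and in 1 of the 6 bile acid genes with a promoter in the table (Abcb11, Cyp8b1, Cyp27a1, Nr0b2, Nr1h4 and Slc10a1). It was settled on after the Abcb11 promoter had been read and other patterns tried, so the match is a description only. It overlaps a match to the single half-site AGGTCA, which 16.3% of promoters hold. No binding was measured here.

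Nr1h4, the bile acid receptor itself, did not pass the test. It was even among controls, at 29.2, 33.0 and 40.6 CPM (lowest, median, highest), and more scattered under restriction, at 9.0, 27.9 and 40.5 CPM. The groups overlapped, with 4 of 6 restricted mice below every control and 2 above the control mean. For Nr1h4 the log2 fold change was -0.30 ± 0.26, with a 95% interval from -0.86 to 0.25 (edgeR quasi-likelihood adjusted p = 0.644), and -0.12 without MR3104.

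Nr0b2, the repressor of Cyp7a1 and Cyp8b1 that Nr1h4 induces, had the lowest control mean of the 10. Its levels were 13.6, 25.6 and 47.2 CPM in controls and 17.5, 37.2 and 45.9 CPM in restricted mice (lowest, median, highest). No restricted mouse lay outside the control range. The log2 fold change of Nr0b2 was 0.28 ± 0.31, with a 95% interval from -0.37 to 0.94 (edgeR quasi-likelihood adjusted p = 0.729).

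**Figure D2:**
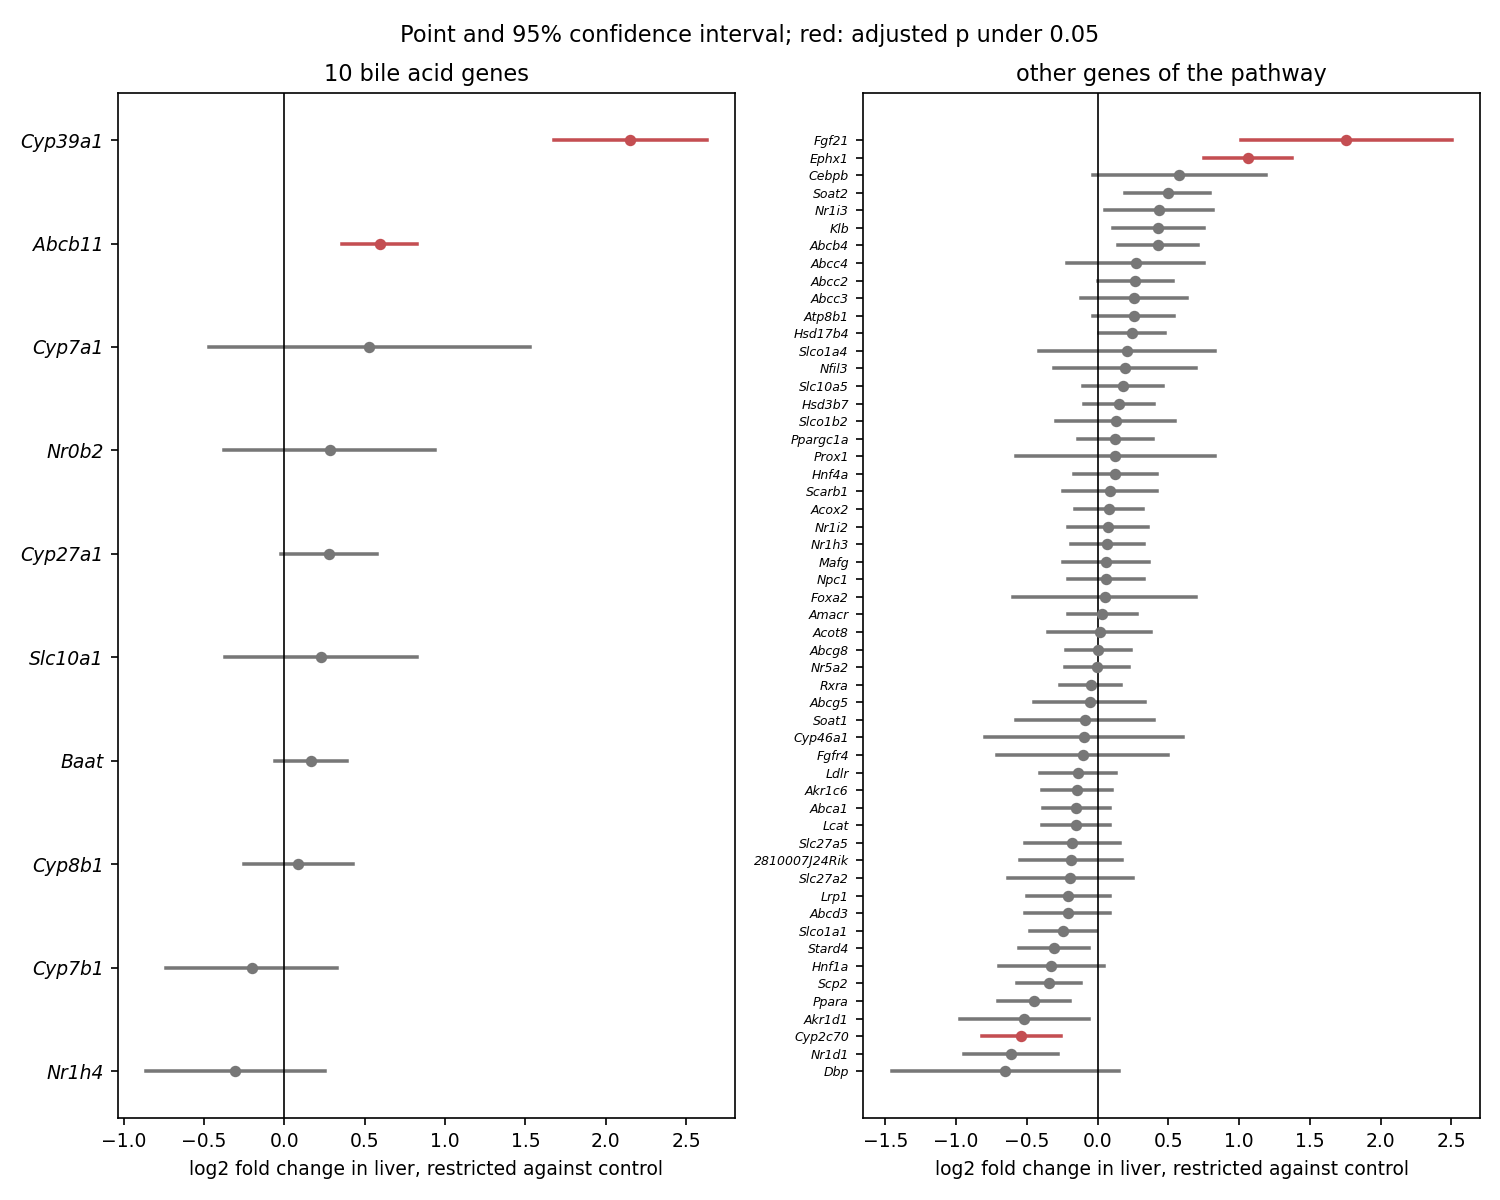
Log2 fold change in liver, restricted against control, with its 95% confidence interval, for the 10 genes (left) and for the other genes of the pathway that were tested (right), with an adjusted p under 0.05 in red. On the left Cyp39a1 (2.15) and Abcb11 (0.59) are in red, and on the right Fgf21 (1.76) and Ephx1 (1.06) above 0 and Cyp2c70 (-0.54) below.

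Of the other enzymes of synthesis and conjugation, 14 of 15 listed were tested, 0 rose and 1 fell, with a median log2 fold change of -0.16. The 1 that fell was Cyp2c70, which makes the muricholic acids of mice. Cyp2c70 stood at 326, 372 and 560 CPM (lowest, median, highest) in controls and 254, 281 and 311 CPM under restriction, so no restricted mouse reached the lowest control. Its log2 fold change was -0.54 ± 0.13 (edgeR quasi-likelihood adjusted p = 0.0459). This call was lost in 15 of 22 alternatives, among them the omission of any 1 of CON3106, CON3112, CON3115 or the 6 restricted libraries, where the log2 fold change ran from -0.43 to -0.57. Without the 3 libraries with skeletal muscle tags it was -0.60 (edgeR adjusted p = 0.164).

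Of 12 tested transporters of bile acids and bile lipids other than Slc10a1 and Abcb11, 1 rose and 0 fell, with a median of 0.23. Ephx1, the microsomal epoxide hydrolase, a detoxifying enzyme that has also been described in bile acid uptake, rose 2.09-fold. It stood at 507, 601 and 701 CPM in controls and 860, 1260 and 1573 CPM in restricted mice, without overlap. Its log2 fold change was 1.06 ± 0.15 (edgeR quasi-likelihood adjusted p = 0.000829).

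Of 19 tested regulators of bile acid genes, 1 rose and 0 fell, with a median of 0.07. This was Fgf21, a hormone of the liver known to rise when dietary protein or methionine is low. Fgf21 stood at 2.65, 3.67 and 12.9 CPM in controls and 10.4, 20.1 and 23.2 CPM under restriction, with the groups overlapping through the highest control. Its log2 fold change was 1.76 ± 0.35 (edgeR quasi-likelihood adjusted p = 0.0132). In 1 fit over the libraries of all tissues the adjusted p was 0.113 for Ephx1 and 0.157 for Fgf21.

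Of 9 tested genes of cholesterol uptake, storage and efflux, 0 passed the edgeR test and 2 had an unadjusted p under 0.05, as did 14.5% of all tested genes, with a median of -0.14. The smallest p was that of Soat2, the cholesterol esterifying enzyme of hepatocytes (log2 fold change 0.50 ± 0.14, edgeR quasi-likelihood adjusted p = 0.0864). Over all 4 lists edgeR called 3 of 54 tested genes (2 higher, 1 lower), where it called 2.26% of all tested genes. An unadjusted edgeR p under 0.05 was held by 15 of these 54, against 14.5% of all tested genes. By list these were 4 of 14 enzymes, 4 of 12 transporters, 5 of 19 regulators and 2 of 9 cholesterol genes. The lists were chosen with earlier results of these data known, so these counts are descriptions. DESeq2 called 7 of the 57 it tested (3 higher, 4 lower). The share of all genes that DESeq2 called is not given here, so its count cannot be read as a result about the lists.

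Since Cyp7b1 is male-biased, the other male-biased genes were read beside it. The list was chosen with earlier results of these data known, and its counts are descriptions. Of 11 tested, Cyp7b1 included, 0 had a positive log2 fold change, with a median of -0.46 against 0.01 over all tested genes. Among them 0 rose and 3 fell, where 1.21% of all tested genes were called lower. The 3 were Cyp4a12b (-2.42 ± 0.37, adjusted p = 0.00191), Cyp4a12a (-0.86 ± 0.17, adjusted p = 0.0123) and Selenbp2 (-1.35 ± 0.33, adjusted p = 0.0459), all by the edgeR quasi-likelihood test. Cyp4a12a and Cyp4a12b are near-identical copies, so their counts may be divided uncertainly between them. The call on Cyp4a12a was lost without the 3 libraries with skeletal muscle tags (-0.88, adjusted p = 0.0794). Leaving out single libraries took the adjusted p of Selenbp2 as high as 0.107, and it passed only without CON3115, MR3101 or MR3116, while without the 3 libraries it was 0.176. In 1 fit over the libraries of all tissues Cyp2c70 and these 3 genes were not called. Of 4 tested female-biased genes 0 passed the edgeR test and 2 had an unadjusted p under 0.05. Cyp2b9 had the smallest p of them (2.56 ± 0.79, adjusted p = 0.116), with 1 restricted library at 73.9 CPM against a restricted median of 6.05 CPM and a control maximum of 3.71 CPM.

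Markers of liver cell types were read beside Cyp39a1 and Abcb11. The summed hepatocyte markers ran from 150190 to 232458 CPM in controls and from 107087 to 196585 CPM under restriction, and the pericentral markers from 2348 to 3447 and from 2466 to 3885 CPM. Of 8 pericentral genes 1 was called, Rhbg, which fell (log2 fold change -1.30 ± 0.30, edgeR quasi-likelihood adjusted p = 0.0358). Over all tested genes 1.21% were called lower. Rhbg was low, with means of 4.90 CPM in controls and 1.99 CPM under restriction, and was not followed in the alternatives. Of the 8 pericentral genes 3 had a positive log2 fold change, with a median of -0.11. Of the other types, 0 of 8 periportal, 0 of 7 Kupffer cell, 0 of 5 cholangiocyte, 0 of 5 sinusoidal endothelial, 0 of 6 stellate cell and 0 of 3 blood genes were called. The stellate cell and blood genes had 0 positive log2 fold changes, with medians of -0.43 and -0.58. Kupffer cell markers summed to 722 CPM in MR3102, where Baat was highest, against at most 342 CPM in the other liver libraries. Sinusoidal endothelial markers summed to 210 to 264 CPM in controls and 263 to 314 CPM under restriction. The part of these markers in the results was not tested.

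No shared variation of the 10 genes between mice was detected, though with 12 libraries even r = 0.63 did not pass. Across the 12 liver libraries, with each log2 CPM centred on its diet mean, 45 pairs were tested by 100000 permutations within diets, 19 correlations were positive, and 0 passed after Benjamini-Hochberg adjustment for either Pearson's r or Spearman's rho. The strongest positive pair was Cyp39a1 with Abcb11, with r = 0.63 (permutation p = 0.0935, adjusted p = 0.637) and rho = 0.45 (permutation p = 0.223, adjusted p = 0.694). It came to r = -0.003 without the 2 libraries farthest from the median of Cyp39a1. That distance was taken before centring, with the median between the diet groups. The 2 left out were thus the lowest controls, CON3114 (24.6 CPM) and CON3115 (26.4 CPM), and r depended on them. Cyp8b1 with Slc10a1 was the 1 pair with an unadjusted permutation p under 0.05 (r = 0.58, p = 0.0407, adjusted p = 0.637, rho = 0.65, p = 0.0327, adjusted p = 0.694), and r was 0.57 without the 2 farthest.

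The genes whose liver pattern was most like that of each main enzyme were ranked by Pearson's r of log2 CPM over the 12 libraries, diet differences included, among 8802 genes. All of these share libraries and depth, and the values are descriptions. For Cyp7a1 they were Sh3gl1 (0.89), Per1 (0.86), Carm1 (0.86) and Rere (0.86). For Cyp8b1 they were Ankrd50 (0.93), Mfsd5 (0.93), Kctd10 (0.91) and Dact2 (0.91), and for Cyp7b1 Adck2 (0.86), Glul (0.85), Dnajb6 (0.81) and Mast2 (0.81). For Cyp39a1, added after its values were seen, they were Cyp4a14 (0.97), Aox1 (0.94), App (0.94) and Psat1 (0.93).

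Outside liver, 0 of the 10 genes were called between diets in any tissue. The edgeR filter on low counts was passed by 5 of them in IWAT (Baat, Cyp8b1, Cyp27a1, Cyp39a1 and Slc10a1) and by Cyp27a1 and Cyp39a1 alone in BAT and gastrocnemius. Over all tested genes, edgeR called 0.027% in IWAT, 1.11% in BAT and 0% in gastrocnemius. None of these tested members had an unadjusted edgeR p under 0.05, which 8.78% of all tested genes had in IWAT, 13.6% in BAT and 6.32% in gastrocnemius. DESeq2 and limma voom also called 0 members in each tissue. Levels are CPM within each tissue's own table, and the tables were normalized separately.

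Cyp39a1 was detected in all 47 libraries. In IWAT it had medians of 8.18 CPM in controls (4.66 to 12.99 CPM) and 6.29 CPM under restriction (4.23 to 10.6 CPM), a log2 fold change of -0.28 ± 0.34 (95% interval -1.01 to 0.46). In BAT its medians were 5.10 CPM (1.88 to 7.22 CPM) and 3.28 CPM (1.97 to 5.53 CPM), a log2 fold change of -0.46 ± 0.33 (95% interval -1.16 to 0.25). In gastrocnemius they were 9.50 CPM (6.43 to 11.6 CPM) and 13.3 CPM (8.71 to 19.6 CPM), a log2 fold change of 0.58 ± 0.31 (95% interval -0.09 to 1.25). The diet groups of Cyp39a1 overlapped in each of these tissues, where those of 1.58% (IWAT), 1.94% (BAT) and 0.276% (gastrocnemius) of tested genes did not.

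The diet effect on Cyp39a1 differed between liver and both fat depots. In 1 edgeR fit over 47 libraries, the liver effect on Cyp39a1 exceeded that in IWAT by 2.39 ± 0.41 (log2, SE, adjusted p = 0.0018) and that in BAT by 2.57 ± 0.42 (adjusted p = 0.000673). It exceeded that in gastrocnemius by 1.60 ± 0.42, which did not pass (edgeR adjusted p = 0.506). The same test called 0.747% of genes against IWAT, 0.104% against BAT and 0.031% against gastrocnemius. Of 9 such contrasts that could be fitted for the 10 genes, these 2 passed.

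**Figure D3:**
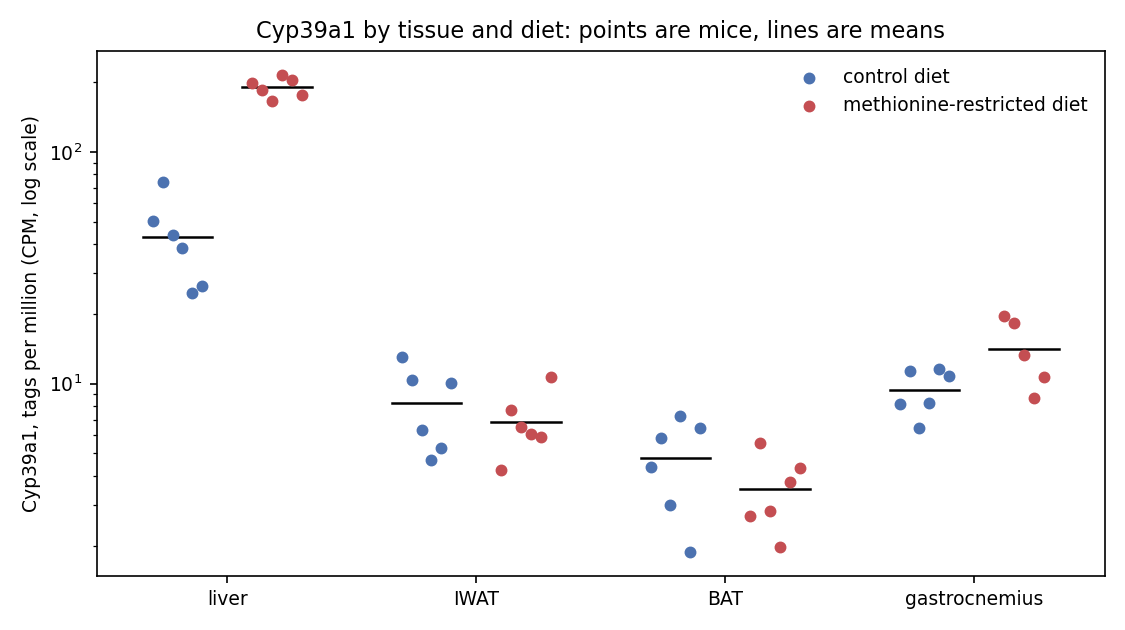
Level of Cyp39a1 (CPM, log axis) in the 4 tissues, with 1 point per mouse in blue for the control diet and red for methionine restriction, and black lines at the means. The diet groups are apart in liver (24.6 to 74.0 against 167 to 216 CPM) and overlap in IWAT, BAT and gastrocnemius.

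Cyp27a1, which many tissues express, was likewise found in all 47 libraries. Its medians were 6.99 and 6.91 CPM in IWAT, 7.20 and 6.71 CPM in BAT and 15.0 and 17.5 CPM in gastrocnemius, for control and restricted mice. The log2 fold changes of Cyp27a1 were 0.06 ± 0.31 in IWAT, -0.28 ± 0.24 in BAT and 0.16 ± 0.49 in gastrocnemius. In gastrocnemius it fell into higher and lower libraries within both diets, with CON3114, CON3115 and MR3104 between 3.35 and 5.21 CPM, MR3101 at 8.44 CPM and the rest from 14.6 to 19.7 CPM.

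The libraries outside liver that held many hepatocyte marker tags also held the most tags of Cyp8b1 and Slc10a1. In IWAT, hepatocyte markers summed to 11606 CPM in CON3103, 8720 CPM in MR3113 and 3860 CPM in CON3114, against 238 to 1215 CPM in the other libraries. Cyp8b1 was counted 296, 175 and 108 times in those 3 libraries and 6 to 29 times in the other IWAT libraries. Slc10a1 was counted 293, 235 and 94 times there and 4 to 37 times in the others. In BAT, CON3106 held 3958 CPM of hepatocyte markers, against 32.7 to 123 CPM in the other libraries, and 175 Cyp8b1 and 226 Slc10a1 tags, against at most 5 and 10 elsewhere.

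Tags of each gene per 1000 hepatocyte marker tags show how far the genes kept the proportion they have in liver. For Slc10a1 this ratio ran from 1.41 to 6.92 in liver, and 0 of 12 IWAT libraries lay outside that range (1.91 to 6.35). In BAT 5 of 12 libraries lay above it and 1 below, and in gastrocnemius 9 of 11 lay above (medians 6.37 and 17.2). The gene was counted 1 to 20 times there outside CON3106. For Cyp8b1 the ratio ran from 2.06 to 4.74 in liver, and 2 of 12 IWAT libraries lay above. In BAT 3 of 12 libraries lay above and 4 below, and in gastrocnemius 7 of 11 lay above and 4 below. Cyp8b1 was counted at most 5 times in BAT outside CON3106 and at most 6 times in gastrocnemius, so these ratios rest on few tags. The 4 libraries rich in hepatocyte tags lay within the liver range for both genes, with 3.37 to 4.39 for Cyp8b1. Cyp39a1 had a median of 0.74 in liver, 8.65 in IWAT, 65.4 in BAT and 269 in gastrocnemius, and Cyp27a1 of 0.45, 6.93, 140 and 360. The Cyp39a1 ratio in liver ran from 0.10 to 0.45 in controls and from 1.04 to 1.84 under restriction. Its liver median of 0.74 thus lies between the diets. Cyp39a1 and Cyp27a1 stood far above their liver proportion in most libraries of the other tissues.

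Baat lay below its lowest liver ratio in 1 of 12 BAT libraries. It exceeded its highest liver ratio (7.38) in 3 of 12 IWAT, 6 of 12 BAT and 5 of 11 gastrocnemius libraries. In IWAT these were CON3103 (11.4, from 893 tags), MR3104 (10.4, from 66 tags) and MR3116 (12.6, from 77 tags), while CON3114 and MR3113 had 3.05 and 2.86. The log2 fold change of Baat in IWAT was -1.30 ± 1.13 with all libraries and 1.39 without the 3 libraries with hepatocyte tags, a setting chosen after seeing the data (edgeR adjusted p = 0.861). Those of Cyp8b1 and Slc10a1 turned from -0.58 to 0.65 and from -0.32 to 0.13 without them.

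**Figure D4:**
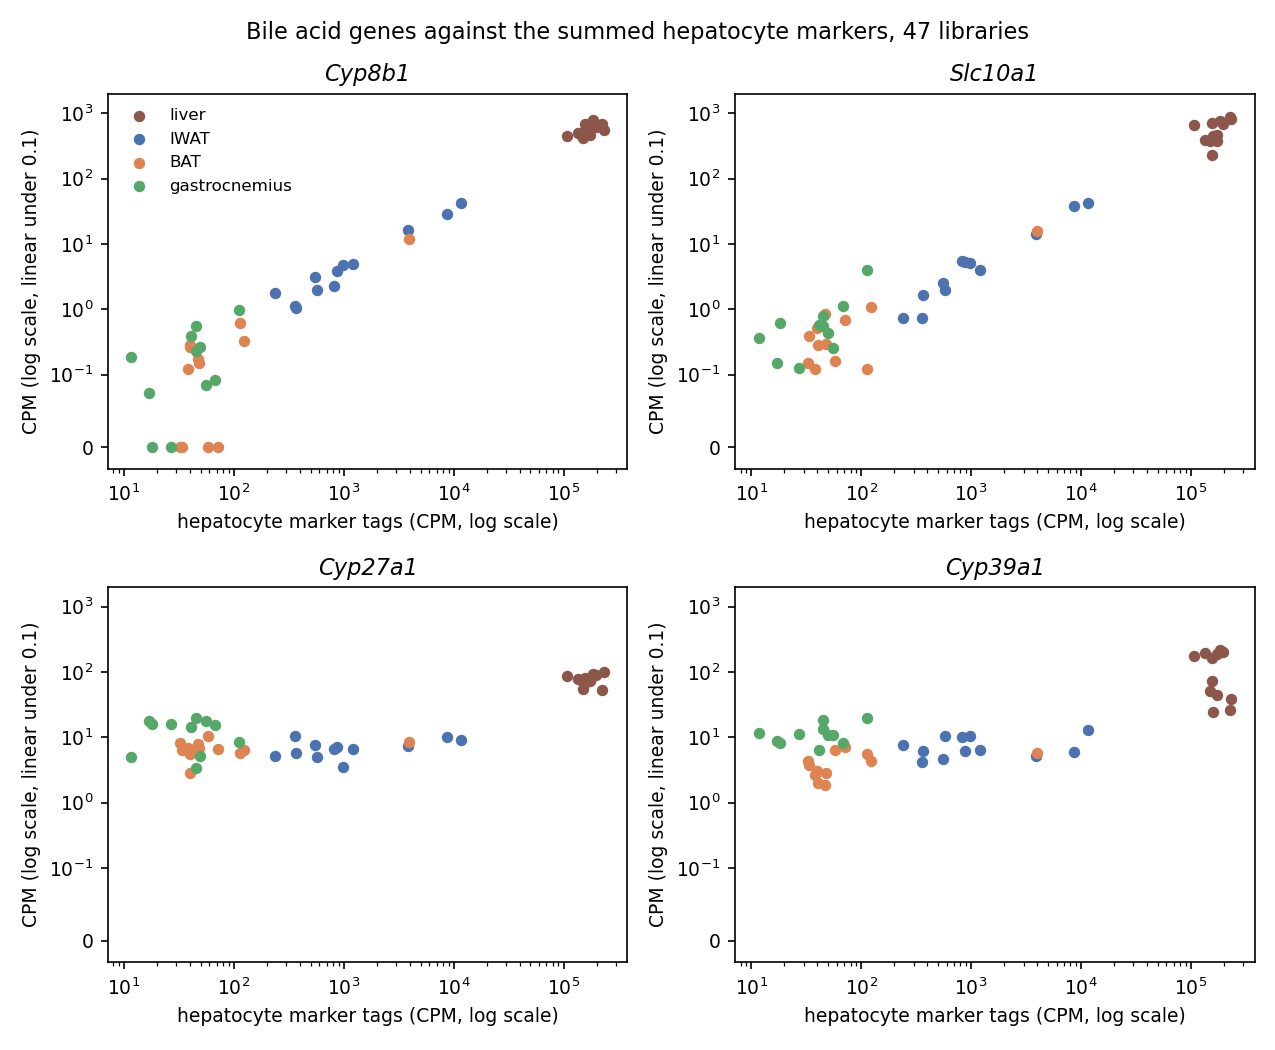
Level of Cyp8b1, Slc10a1, Cyp27a1 and Cyp39a1 (CPM, log axis, linear under 0.1) against the summed hepatocyte markers (CPM, log axis), with 1 point per library, coloured by tissue (47 libraries). Cyp8b1 and Slc10a1 are higher in the IWAT and BAT libraries with more hepatocyte tags, with Slc10a1 in gastrocnemius above its proportion in liver, and Cyp27a1 and Cyp39a1 lie between 1.88 and 19.7 CPM in all libraries outside liver.

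Some members had few or no tags outside liver. In gastrocnemius Cyp7a1, Nr0b2 and Nr1h4 reached at most 4 tags, Abcb11 3, Cyp8b1 6, Cyp7b1 10, Slc10a1 20 and Baat 29. In BAT libraries other than CON3106, Abcb11 was counted at most 5 times and Baat at most 8 times.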

How the data were processed

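The authors deposited raw counts of SAGE tags per gene symbol for each tissue, and a second table of counts normalized with DESeq, a signal without units, per the file headers and the submitters' processing notes, which also name mm10 and GRCm38.p1. Aligner and counter are not named in those sources. Per the labels' protocols, 7 to 12 ng of RNA went into each library. The labels give no batch. Counts were tested in each tissue with edgeR 4.0.16 (quasi-likelihood test, TMM factors, filterByExpr with a minimum count of 10, R 4.3.3), with Benjamini-Hochberg adjustment over all genes tested and a threshold of 0.05. CPM of genes are tags per 1000000 of the TMM-scaled library total (factors 0.613 to 1.31), and marker sums use the plain total. Differences between tissues came from 1 fit over 47 libraries and the 26583 symbols in every table. Tissues came from the same animals, so animal numbers pair them; deviations of same-numbered libraries had mean correlations of -0.051 to 0.060 over the 6 tissue pairs. DESeq2 1.42.0, limma 3.58.1 (voom, and log2 of the deposited normalized signal plus 1 or 0.5), other scalings, filters and left-out libraries were tried. No library pair of a group agreed within counting noise. Scripts were tested on simulated data. The genes, lists and tests were chosen with earlier results of these data known. All 10 genes are named; from each other pathway list the called genes (at most 4, by p) or, with none called, the gene with the smallest p; and the 4 genes most like Cyp7a1, Cyp8b1 and Cyp7b1 in liver. Cell type marker lists are given by counts, with the 1 called gene, Rhbg, named.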

Additional observations from a re-analysis of the deposited data

Results flagged for a closer look

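Groups of 4 or more libraries were read where the highest library held more than 3 tags of the gene. That limit was chosen after the tags were seen. A library far from the others was flagged by a rule with a nominal rate of about 5% of groups. That rate is for normally distributed values. It does not hold for groups with few tags, some of which entered through the library then flagged, so the counts are descriptions. Of 67 such groups, 26 had 1 library far from the others. Of these, 20 fell on 3 libraries with hepatocyte marker tags, BAT CON3106 with 7, IWAT CON3103 with 7 and IWAT MR3113 with 6. In BAT CON3106 the levels were 6.13 CPM for Abcb11, 9.92 for Baat, 0.895 for Cyp7a1, 6.89 for Cyp7b1, 12.0 for Cyp8b1, 0.413 for Nr0b2 and 15.6 for Slc10a1. In IWAT CON3103 they were 30.9 CPM for Abcb11, 129 for Baat, 5.92 for Cyp7a1, 9.23 for Cyp7b1, 42.7 for Cyp8b1, 4.47 for Nr1h4 and 42.3 for Slc10a1. In IWAT MR3113 they were 12.3 CPM for Abcb11, 1.64 for Cyp7a1, 9.52 for Cyp7b1, 28.7 for Cyp8b1, 0.821 for Nr0b2 and 38.6 for Slc10a1. The part of hepatocyte RNA in these levels was not tested beyond the ratios given above.

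Elsewhere a high library was found in BAT MR3102 for Abcb11 (0.614 CPM), in gastrocnemius CON3103 for Baat (1.01 CPM) and CON3107 for Nr0b2 (0.384 CPM), and in gastrocnemius MR3101 for Cyp7b1 (1.96 CPM) and Slc10a1 (3.93 CPM), all from few tags. In liver Baat stood at 953 CPM in MR3102, with the next restricted mouse at 747 CPM.

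The diet effect on Cyp39a1 differed between liver and BAT by 2.57 and between liver and IWAT by 2.39 (log2, edgeR interaction test over 47 libraries).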

How the results depend on the processing

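Of 352 recomputed values of the 16 liver genes, 318 kept direction and side of the threshold, 33 lost the call, 0 gained one and 1 reversed. Cyp39a1 in liver kept its call in all 22 alternatives (log2 fold change 2.03 to 2.37), and Abcb11 in 20 (0.54 to 0.66), with 0.52 and 0.58 in the 2 that lost it. The count of 2 members called in liver was 1 in the fit over all 47 libraries and 1 without the libraries with skeletal muscle tags, and 2 without each replicate in turn. The counts of 0 in IWAT, BAT and gastrocnemius were 0 without each replicate in turn. The count of 3 other pathway genes ran from 2 to 4 without each replicate in turn. It was 7 with DESeq2, whose share of calls over all genes is not given here. Of the correlations between members, 1 passed without centring on the diet mean, against 0 with it. The strongest without centring was Cyp39a1 with Abcb11 (r = 0.93), the 2 genes called higher under restriction. Without centring the diet difference enters r, so this is no separate result. The replicate block, with the animal as a term, left 2 differences between tissues called and changed no other call; under it the difference for Baat between liver and IWAT turned from 1.46 to -0.10. Some values that never passed the threshold changed sign. Without each replicate in turn, Cyp8b1 in liver ran from -0.026 (without MR3109) to 0.15. Other liver members that were not called ran from 0.29 to 0.88 (Cyp7a1), -0.33 to -0.047 (Cyp7b1), 0.21 to 0.41 (Cyp27a1), 0.092 to 0.19 (Baat), 0.069 to 0.43 (Slc10a1), -0.45 to -0.12 (Nr1h4) and 0.13 to 0.49 (Nr0b2). In IWAT, Cyp8b1 ran from -1.78 to 0.60, Baat from -1.71 to 1.15 and Slc10a1 from -1.84 to 0.81, with the positive end without CON3103 and the negative end without MR3113. Cyp27a1 in IWAT ran from -0.084 to 0.16, negative without CON3106, CON3107, MR3101 or MR3113, and in gastrocnemius from -0.029 to 0.40, negative without CON3114 or MR3102. Without the IWAT libraries with hepatocyte tags Cyp8b1 was 0.65, Baat 1.39 and Slc10a1 0.13, and by limma on the deposited normalized signal Baat was 0.041 and 0.047 for the pseudocounts 1 and 0.5. Without a filter on low counts 6 members in BAT had an unadjusted edgeR p under 0.05 and 0 passed. The share of all genes in that unfiltered fit is not given here, so this count cannot be read as a result about the members. Of the tags in BAT controls, CON3106, the library with hepatocyte tags, held 175 of 181 for Cyp8b1, 226 of 254 for Slc10a1 and 100 of 109 for Cyp7b1. It held 122 of 411 for Cyp27a1 and 3 of 6 for Nr1h4. The part of these tags in the count of 6 was not tested. The settings without libraries with skeletal muscle or hepatocyte tags were chosen after seeing the data. Depth limits Cyp7a1, Nr0b2 and Nr1h4 outside liver, where most libraries held 3 tags or fewer.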
